A study of Homo sapiens with 6 samples.

Results

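The abundant noncoding genes of the thyroid cancer cell line KHM-5M were examined after knockdown of GDF15. They were 274 of the 34738 genes in the deposited table. A member had no protein-coding transcript type and a mean of at least 5 FPKM, a level scaled to transcript length and library size, over all 6 libraries. Mitochondrially encoded genes, SNHG genes, GAS5, ZFAS1, EPB41L4A-AS1 and DANCR were left out by name, which removed 36 genes at that level. In all, 17838 genes carried no protein-coding type. Members were thus selected on their measured FPKM, which is given as a description only. Their median was 10.5 FPKM, with 133 members from 5 to under 10 FPKM, 105 from 10 to under 50, 16 from 50 to under 100 and 20 at 100 or more. PKD1P1 (5.01 FPKM) and an identifier-only lncRNA (5.02 FPKM) lay just inside the limit, and ARRDC1-AS1 (4.99 FPKM) and SNRPGP15 (4.98 FPKM) just outside it.

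A noncoding gene yields RNA that is not translated into an annotated protein. Membership rested on the deposited transcript types alone, so rows of coding genes can be among the members, such as the one named ORAI1. Long noncoding RNAs (lncRNAs) include nuclear scaffolds such as NEAT1, around which paraspeckle bodies form, and cytoplasmic RNAs such as NORAD, which binds RNA-repressing proteins. A processed pseudogene is a copy of a coding gene's mRNA that was inserted elsewhere in the genome, without introns. A pseudogene may be transcribed, but where it stays nearly identical to its coding gene a short read can match both. Read-through rows join the exons of neighbouring genes, and genes for small RNAs such as the signal recognition particle RNA are transcribed by RNA polymerase III and are not polyadenylated in the usual way.

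RNA of 3 siGDF15 libraries, from cells given small interfering RNA against the cytokine GDF15, was compared with RNA of 3 NC libraries. The study lists a single siRNA sequence against GDF15, so effects of that siRNA on other genes cannot be told apart from those of the knockdown. The study's methods call NC a negative control and list a negative control siRNA with its sequence, while the deposited design text calls NC a blank control. An effect of transfection itself cannot be told apart from that of the knockdown if NC cells received no siRNA. The labels name KHM-5M for all 6 libraries, while a figure legend of the study names the line TPC-1. The methods call the libraries of a group biological replicates without saying whether they came from separate cultures, so the tests measure the spread between these libraries, which may be technical.

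GDF15 stood at 22.4, 19.3 and 23.1 FPKM in NC and at 10.8, 10.5 and 10.7 FPKM in siGDF15, with a log2 fold change of -0.92 (SE 0.079, edgeR adjusted p = 2.4e-05). Total counts ran from 51738814 to 68025163, lowest in siGDF15 replicate 2. Of the thyroid follicular markers, PAX8 ran from 54.3 to 64.8 FPKM in NC and from 77.5 to 80.4 FPKM in siGDF15, without overlap, and FOXE1 from 2.53 to 2.94 FPKM, while TG ran from 0.035 to 0.071 FPKM in NC and from 0.16 to 0.22 FPKM in siGDF15, and NKX2-1 and SLC5A5 stayed at or under 0.043 FPKM. Epithelial markers had means from 1.09 FPKM (CDH1) to 93.2 FPKM (KRT18) and mesenchymal markers from 1.07 FPKM (PDGFRB) to 377.3 FPKM (VIM). The endothelial markers PECAM1 and VWF and the immune marker PTPRC stayed at or under 0.16 FPKM, while CD68, the other immune marker listed, ran from 15.9 to 19.45 FPKM. The share of counts in mitochondrially encoded genes ran from 6.39 to 6.78% across NC and from 8.53 to 9.17% across siGDF15. The share in all members was 1.18, 1.11 and 1.07% for NC against 1.25, 1.26 and 1.29% for siGDF15, without overlap. Fewer cells with an RNA and less of it per cell cannot be told apart in bulk libraries such as these.

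All 274 members were tested. At an adjusted p under 0.05, 109 members (39.8%) were higher in siGDF15 and 53 (19.3%) were lower, against 30.0% higher and 31.4% lower among all 11867 genes tested. The median log2 fold change was 0.26 over the members and 0.0026 over all genes tested. In counts scaled by TMM (the trimmed mean of M-values, which corrects library sizes), all 3 siGDF15 libraries lay above all 3 NC libraries for 122 members and below them for 54, against 33.8% and 34.1% of all genes tested. With a log2 fold change of at least 1 either way as a further condition, 14 members were higher and 14 lower, against 3.03% and 4.78% of all genes tested. Membership rested on a mean over both groups, and 18 members reached 5 FPKM in siGDF15 but not in NC and 21 in NC but not in siGDF15. Of the members described below, the 18 include CRIM1-DT, ENSG00000286546 and FTLP3. The 21 include TUBA1B-AS1, LINC02970, CKS1BP3, a pseudogene of UHRF1, HMGB1P10 and ENSG00000284946. Such members could enter through the group where they were high. Among the 235 members at 5 FPKM or more in both groups, 98 (41.7%) were higher and 39 (16.6%) lower. With a log2 fold change of at least 1 as well, 10 of the 235 were higher and 5 lower.

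By class, 182 members were pseudogenes, 53 were listed by an identifier only, 18 were other named genes, 12 had antisense, divergent or intronic names, 4 had LINC names, 3 were small RNA genes and 2 were a microRNA gene or host. Pseudogenes had 80 higher and 29 lower members, of which 49 and 0 were ribosomal protein pseudogenes. The other 109 pseudogenes had 31 higher (28.4%) and 29 lower (26.6%) and a median log2 fold change of 0.014, near the shares of 30.0% and 31.4% over all genes tested. Identifier-only rows had 14 higher and 14 lower, and TUBA1B-AS1 is counted among them because the deposited table lists it by an identifier. The other named genes had 7 higher and 4 lower, the antisense, divergent or intronic names 6 and 3, and the LINC names 1 and 2. By annotated type, 58 members were lncRNA genes, of which 23 were higher and 12 lower, with a median log2 fold change of 0.21. In GENCODE release 29, 264 members had a transcript, with a median length of 745 bases. Of the pseudogenes, 146 had a single exon there, and their median transcript length was 633.5 bases.

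**Figure D1:**
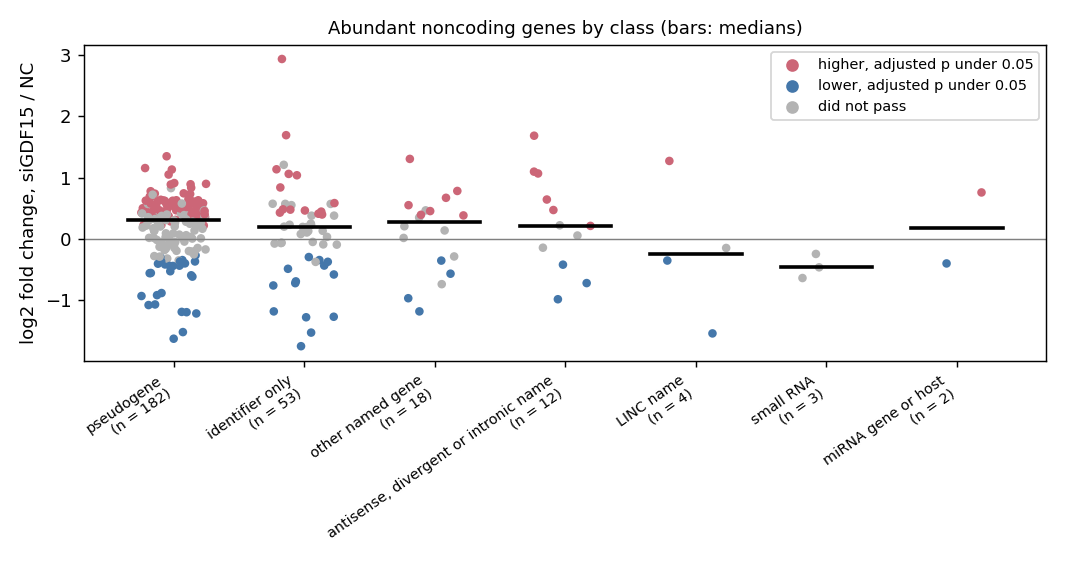
Log2 fold change (siGDF15 against NC, 3 libraries each) of the 274 members by class, where each point is a gene, the bar is the class median and the colour gives the call at an adjusted p under 0.05. Pseudogenes had a median of 0.30 (0.44 for the 73 of ribosomal protein genes and 0.014 for the other 109), the 4 LINC genes one of -0.25 and the 3 small RNA genes, of which none passed, one of -0.47.

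Among the lncRNA genes with known roles, NORAD and NEAT1 were higher after knockdown and OIP5-AS1 was lower. NORAD (non-coding RNA activated by DNA damage, chr20:36045618-36051018) is an abundant and conserved cytoplasmic RNA. It measured 38.9, 40.2 and 34.3 FPKM in NC and 57.8, 54.5 and 55.3 FPKM in siGDF15. The groups lay clear of each other, with a log2 fold change of 0.67 (SE 0.061, adjusted p = 3.2e-05).

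NEAT1 (chr11:65422774-65445540), the scaffold of paraspeckles, measured 20.999, 23.1 and 17.02 FPKM in NC and 31.0, 30.4 and 36.1 FPKM in siGDF15. Every siGDF15 library was above every NC library, and the log2 fold change was 0.78 (SE 0.11, adjusted p = 0.00033). MALAT1 (chr11:65497688-65506469), an RNA of nuclear speckles that lies near NEAT1, measured 21.5, 25.6 and 16.99 FPKM in NC and 26.0, 22.9 and 28.7 FPKM in siGDF15. Its groups overlapped, and its log2 fold change of 0.38 passed at an adjusted p of 0.038, with values from 0.0027 to 0.13 over the other fits. It did not pass without NC replicate 1 (0.086), siGDF15 replicate 1 (0.084) or siGDF15 replicate 3 (0.12). NC replicate 3 was the lowest library for both genes and siGDF15 replicate 3 the highest.

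Genes of the proteins listed as partners of noncoding RNAs were lower more often than higher. Of 10 paraspeckle proteins, 8 were lower and 1 higher. NUDT21, a subunit of the 3' cleavage factor, went from a mean of 29.1 ± 1.95 to 17.8 ± 0.51 FPKM (SD, n = 3 each), with a log2 fold change of -0.61 (adjusted p = 3.4e-05), while the paraspeckle protein PSPC1 was higher at 0.26 (adjusted p = 0.0025).

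Of 15 genes of nuclear RNA decay, 9 were lower and 4 higher. The exosome subunits EXOSC8, EXOSC9 and EXOSC10 had log2 fold changes of -1.03, -0.97 and -0.87 (adjusted p = 5.7e-06, 6.1e-06 and 7.6e-06), and EXOSC8 went from 4.68 ± 0.29 to 2.12 ± 0.070 FPKM (SD, n = 3). The exosome nuclease DIS3 was higher at 0.28 (adjusted p = 0.0020), as was RBM7, an adaptor of the exosome, at 0.30 (adjusted p = 0.0036). Of 6 genes of cytoplasmic decay, 4 were lower and none higher. XRN1 and UPF1, the central nuclease and helicase of that list, had log2 fold changes of -0.40 and -0.36. RNase P and MRP subunits had 6 lower and 1 higher of 9 tested, and the 7SK particle and P-TEFb 2 lower and 1 higher of 7, the higher gene being the kinase CDK9 at 0.50 (adjusted p = 3.1e-05). Over the whole partner list, 31 of 55 tested genes were lower and 9 higher, against 31.4% and 30.0% of all genes tested. Without siGDF15 replicate 3, 5 partner genes were higher.

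OIP5-AS1 (chr15:41283990-41309737), a cytoplasmic lncRNA known to bind the protein HuR and miR-7, measured 7.00, 7.65 and 7.03 FPKM in NC and 5.02, 5.20 and 4.79 FPKM in siGDF15. The groups did not overlap, with a log2 fold change of -0.42 (SE 0.057, adjusted p = 0.00029). OIP5, a coding gene on the opposite strand that shares coordinates with it and acts at the centromere, went from 15.0 to 4.12 FPKM (log2 fold change -1.75, SE 0.11). H19 (chr11:1995176-2001470), an imprinted fetal lncRNA, measured 6.41, 5.46 and 6.59 FPKM in NC and 5.36, 6.85 and 6.65 FPKM in siGDF15. Its groups overlapped, and its log2 fold change of 0.13 did not pass (adjusted p = 0.35).

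Of the p53-linked list of lncRNA genes, no gene reached the level of a member, and neither did the remaining cancer-associated lncRNAs except H19. Of the cancer-associated genes below that level that were tested, MIR4435-2HG had a log2 fold change of 0.69 (adjusted p = 7.2e-06), CASC19 one of 1.12 (adjusted p = 0.00068) and LINC00511 one of 0.73 (adjusted p = 0.00043). PVT1 at 0.16 (adjusted p = 0.12) and CYTOR at 0.21 (adjusted p = 0.056) did not pass. RN7SK, RMRP and RPPH1 stood at or under 0.85 FPKM in these poly(A)-selected libraries.

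**Figure D2:**
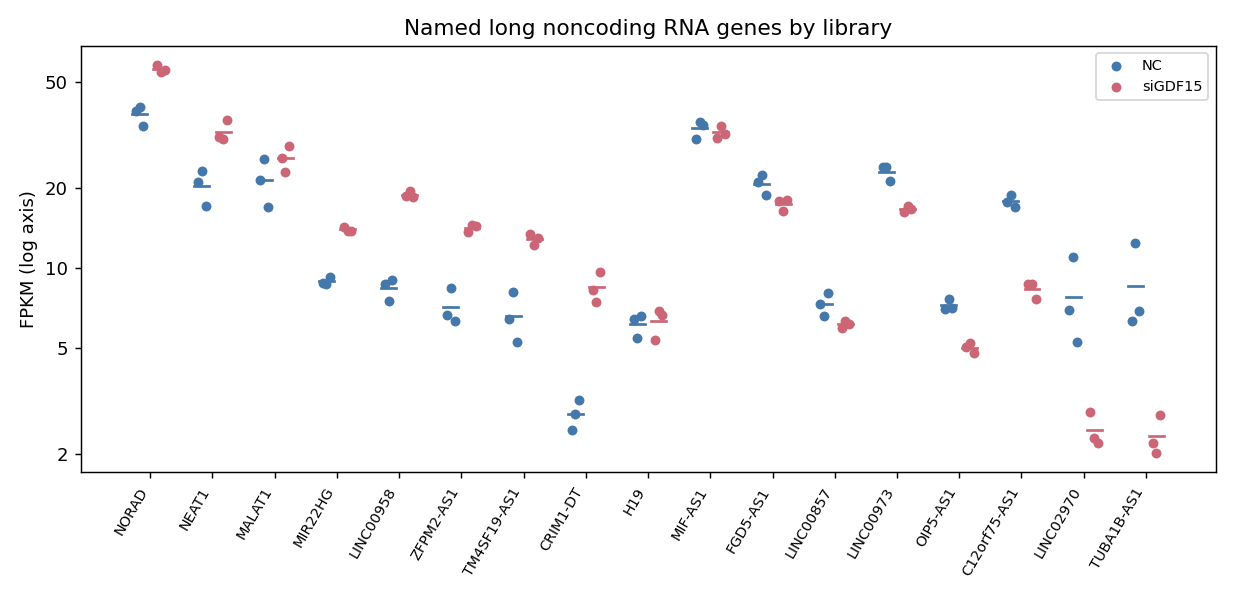
FPKM of 17 named lncRNA genes on a log axis, where each point is a library and each bar the mean of 3 libraries, for NC (blue) and siGDF15 (red). NORAD rose from a mean of 37.8 to 55.9 FPKM and CRIM1-DT from 2.82 to 8.46 FPKM, TUBA1B-AS1 fell from 8.52 to 2.33 FPKM, and the libraries of H19, MIF-AS1, MALAT1, FGD5-AS1 and LINC00857 either overlapped between groups or did not pass the test.

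The microRNA host gene MIR22HG (chr17:1711447-1716282) carries miR-22 in its transcript. The mature miR-22-3p and the mature microRNA of MIR1244-2, the other microRNA member, are shown from RefSeq (GRCh38.p14) with the seed, bases 2 to 8, in capitals, because the seed sets which mRNAs a microRNA pairs with. They share no seed, and neither mature RNA was measured by these poly(A) libraries.
hsa-miR-22-3p (chr17:1713914-1713935, minus strand): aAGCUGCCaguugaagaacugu
hsa-miR-1244 (chr5:118974640-118974665, plus strand): aAGUAGUUgguuuguaugagaugguu
MIR22HG measured 8.77, 8.66 and 9.22 FPKM in NC and 14.3, 13.8 and 13.8 FPKM in siGDF15, with a log2 fold change of 0.76 (SE 0.057, adjusted p = 1.2e-05). Its spread within each group was small beside the gap between them. WDR81, whose start lies 241 bases away on the opposite strand, had a smaller log2 fold change of 0.30 (SE 0.065, adjusted p = 0.0036).

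MIR1244-2 (chr5:118974586-118974670) measured 36.2, 38.1 and 34.2 FPKM in NC and 27.1, 26.6 and 22.4 FPKM in siGDF15. The log2 fold change of -0.40 (SE 0.16) lay at the limit, with an adjusted p of 0.050, and 12 of 16 other fits gave 0.05 or more, among them all 6 that left out a library (0.064 to 0.16). Its annotated 85 bases were 100% identical to part of the mRNA of PTMA, the coding gene of the acidic nuclear protein prothymosin alpha. PTMA itself stood at 187.9 FPKM and had a log2 fold change of -0.45 (adjusted p = 6.8e-05). How the deposited counts divided reads that match both places is not stated, so the value of MIR1244-2 is uncertain.

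Among LINC genes, LINC00958 was higher and LINC00973 and LINC02970 were lower. LINC00958 (chr11:12961541-12989589) measured 8.68, 7.48 and 8.99 FPKM in NC and 18.6, 19.5 and 18.4 FPKM in siGDF15, a log2 fold change of 1.27 (SE 0.077, adjusted p = 3.6e-06). LINC02970 (chr20:62596732-62603355) measured 6.97, 11.0 and 5.26 FPKM in NC and 2.87, 2.29 and 2.20 FPKM in siGDF15. Its NC libraries were spread over a 2.09-fold range, yet all lay above the siGDF15 libraries (log2 fold change -1.55, SE 0.25, adjusted p = 0.00077). LINC00973 (chr3:98981058-98983096), the most abundant LINC member, measured 23.9, 24.0 and 21.1 FPKM in NC and 16.3, 17.1 and 16.6 FPKM in siGDF15 (log2 fold change -0.36, SE 0.073, adjusted p = 0.0030). LINC00857 did not pass, at a log2 fold change of -0.15 (adjusted p = 0.18), but did without NC replicate 2 (-0.23, adjusted p = 0.040).

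Antisense, divergent and intronic lncRNA genes are given with the coding gene beside them. TM4SF19-AS1 (chr3:196318330-196325570) measured 6.43, 8.09 and 5.27 FPKM in NC and 13.4, 12.2 and 13.0 FPKM in siGDF15 (log2 fold change 1.07, SE 0.13, adjusted p = 0.00020). The opposite-strand gene TM4SF19, a membrane protein gene, went from 61.8 to 128.2 FPKM (1.16, SE 0.10), and DYNLT2B, a dynein light chain gene whose start lies 90 bases away, from 4.21 to 7.89 FPKM (1.01, SE 0.15). The read-through row TM4SF19-DYNLT2B measured 4.22, 7.88 and 4.84 FPKM in NC and 10.8, 14.7 and 13.5 FPKM in siGDF15 (1.31, SE 0.23, adjusted p = 0.0014). All 4 rows of this locus were thus higher, and their reads cannot be fully told apart.

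CRIM1-DT (chr2:36354744-36355471) starts 307 bases from CRIM1, a gene for a transmembrane protein that binds bone morphogenetic proteins, and runs the other way. CRIM1-DT measured 2.46, 2.82 and 3.18 FPKM in NC and 8.26, 7.46 and 9.68 FPKM in siGDF15 (log2 fold change 1.69, SE 0.17, adjusted p = 5.3e-05). It was one of the members that reached 5 FPKM through the siGDF15 libraries only. CRIM1 went from 25.3 to 40.02 FPKM (0.77, SE 0.12, adjusted p = 0.00083). ENSG00000286546 (chr20:15892355-15985876), antisense to MACROD2, measured 5.03, 5.53 and 4.08 FPKM in NC and 14.5, 14.9 and 14.6 FPKM in siGDF15 (1.69, SE 0.10, adjusted p = 3.8e-06). MACROD2 itself, an ADP-ribose hydrolase gene, had a log2 fold change of 0.70 (SE 0.090).

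TUBA1B-AS1 (chr12:49127782-49188484) shares coordinates with the alpha-tubulin genes TUBA1B and TUBA1A on the opposite strand. It measured 6.30, 12.4 and 6.85 FPKM in NC, with replicate 2 high, and 2.19, 2.01 and 2.80 FPKM in siGDF15 (log2 fold change -1.76, SE 0.25, adjusted p = 0.00043). TUBA1B went from 587.2 to 253.3 FPKM (-1.11, SE 0.064), while TUBA1A had a log2 fold change of 0.026 (adjusted p = 0.69). The libraries were made with a kit that marks strand, but the strand setting of the counting is not given in the sources used here, so reads of TUBA1B-AS1 and TUBA1B cannot be told apart with certainty. The same holds for the other opposite-strand pairs.

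PTOV1-AS2 and the opposite-strand gene PTOV1 both passed in opposite directions. PTOV1-AS2 measured 6.18, 7.30 and 6.79 FPKM in NC and 3.93, 3.25 and 4.18 FPKM in siGDF15 (log2 fold change -0.73, SE 0.14, adjusted p = 0.0024), and PTOV1 had 0.58 (SE 0.052, adjusted p = 2.7e-05). ANKRD10-IT1, on the strand of ANKRD10, had a log2 fold change of 0.47 (SE 0.15, adjusted p = 0.025) beside 1.02 (SE 0.052) for ANKRD10. THAP9-AS1 had 0.21 (SE 0.078, adjusted p = 0.044) beside 0.94 (SE 0.042) for SEC31A, a gene of vesicle coats that it overlaps on the same strand. HSD17B1-AS1 was higher at 0.64 (SE 0.079, adjusted p = 0.00017), while its neighbour HSD17B1 stood at 0.14 FPKM in both groups. MRPL20-AS1, at 0.22, did not pass (adjusted p = 0.067).

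C12orf75-AS1 (chr12:105304867-105327017) measured 17.7, 18.8 and 16.9 FPKM in NC and 8.69, 8.67 and 7.63 FPKM in siGDF15 (log2 fold change -0.99, SE 0.11, adjusted p = 0.00012). C12orf75, on the opposite strand, had a log2 fold change of -0.15 (SE 0.044). ZFPM2-AS1 measured 6.66, 8.39 and 6.32 FPKM in NC and 13.7, 14.5 and 14.4 FPKM in siGDF15 (1.10, SE 0.10, adjusted p = 3.7e-05), while ZFPM2, a gene for a cofactor of GATA factors, had a log2 fold change of -0.16 that did not pass (adjusted p = 0.27). FGD5-AS1 did not pass, at -0.15 (adjusted p = 0.079, and 0.0057 without NC replicate 3, at -0.21), although the nuclear receptor gene NR2C2, whose start lies 841 bases away, fell by 0.86 on the log2 scale (adjusted p = 0.00093). MIF-AS1 at 0.052 (adjusted p = 0.57) and MIF, the cytokine gene on its opposite strand, at 0.11 (adjusted p = 0.073) did not pass either. These differences between member and neighbour were not tested.

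Over all members, 130 of 274 overlapped a coding gene or started within 1000 bases of the start of one on the opposite strand. A coding gene overlapped 54 members on the same strand and 79 on the opposite strand, and 16 members had a divergent start. ENSG00000276851 (chr17:50094065-50094647), an lncRNA with no such neighbour, measured 4.89, 5.99 and 4.22 FPKM in NC and 9.94, 10.2 and 10.7 FPKM in siGDF15 (log2 fold change 1.14, SE 0.16, adjusted p = 0.00037).

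RefSeq promoters (GRCh38.p14) ran from 250 bases before to 50 after a gene's start and matched 23 members. They are printed for 3 lncRNA genes that were higher (NORAD, MIR22HG and TM4SF19-AS1) and for 2 that were lower (OIP5-AS1 and C12orf75-AS1), so that the sequence at their starts can be set beside their changes. Capitals mark matches, on either strand, to the TATA box TATAAA, the GC box GGGCGG, the box CCAAT, the cell cycle element TTTGAA, the AP-1 site TGACTCA, the E-box CACGTG or the amino acid response element TGATGNAA.
NORAD (chr20:36050911-36051210, minus strand): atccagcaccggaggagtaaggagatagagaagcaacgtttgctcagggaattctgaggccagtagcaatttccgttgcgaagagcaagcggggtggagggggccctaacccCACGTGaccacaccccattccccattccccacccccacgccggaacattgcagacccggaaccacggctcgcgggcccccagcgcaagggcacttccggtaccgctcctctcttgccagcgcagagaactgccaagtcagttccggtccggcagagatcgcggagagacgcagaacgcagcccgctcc
MIR22HG (chr17:1716161-1716460, minus strand): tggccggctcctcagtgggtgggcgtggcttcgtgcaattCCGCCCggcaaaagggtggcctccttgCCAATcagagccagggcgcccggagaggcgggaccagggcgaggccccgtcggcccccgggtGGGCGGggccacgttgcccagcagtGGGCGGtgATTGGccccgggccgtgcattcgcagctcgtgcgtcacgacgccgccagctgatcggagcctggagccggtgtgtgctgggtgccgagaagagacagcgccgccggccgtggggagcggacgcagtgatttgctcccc
TM4SF19-AS1 (chr3:196318082-196318381, plus strand): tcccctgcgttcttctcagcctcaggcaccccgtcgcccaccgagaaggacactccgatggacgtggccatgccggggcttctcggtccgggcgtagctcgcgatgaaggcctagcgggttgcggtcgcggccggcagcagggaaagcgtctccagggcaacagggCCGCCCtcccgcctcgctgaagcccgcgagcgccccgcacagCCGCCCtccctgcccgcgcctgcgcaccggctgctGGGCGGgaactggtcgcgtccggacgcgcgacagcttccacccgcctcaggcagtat
OIP5-AS1 (chr15:41283740-41284039, plus strand): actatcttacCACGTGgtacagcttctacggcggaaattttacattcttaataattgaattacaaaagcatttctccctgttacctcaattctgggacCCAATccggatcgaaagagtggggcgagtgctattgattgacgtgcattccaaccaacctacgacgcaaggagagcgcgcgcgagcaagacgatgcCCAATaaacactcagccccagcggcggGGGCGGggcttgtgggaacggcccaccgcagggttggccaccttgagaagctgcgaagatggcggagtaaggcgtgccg
C12orf75-AS1 (chr12:105326968-105327267, minus strand): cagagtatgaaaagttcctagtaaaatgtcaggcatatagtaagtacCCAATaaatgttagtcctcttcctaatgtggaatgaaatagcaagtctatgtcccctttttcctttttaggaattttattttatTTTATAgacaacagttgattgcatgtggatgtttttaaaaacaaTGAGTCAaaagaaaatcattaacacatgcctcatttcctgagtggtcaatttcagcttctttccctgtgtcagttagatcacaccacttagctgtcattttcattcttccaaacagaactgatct
The windows of NORAD and OIP5-AS1 held CACGTG. The GC box lay in the MIR22HG, TM4SF19-AS1 and OIP5-AS1 windows and not in those of NORAD and C12orf75-AS1. CCAAT lay in the MIR22HG, OIP5-AS1 and C12orf75-AS1 windows. Among those printed, only the C12orf75-AS1 window held the TATA box and the AP-1 site. The GC box occurred in 16 of the 23 member windows (69.6%) and in 45.0% of all 35116 windows of the table, and CCAAT in 12 (52.2%) and 34.6%. The GC box occurred in 5 of 7 windows of members that were higher and in 5 of 8 of those that were lower, CCAAT in 2 and in 6, and the AP-1 site in 0 and in 2. A match describes the letters only.

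Pseudogenes made up most of the members, and they were led by ribosomal protein pseudogenes, of which there were 73. Of these, 49 (67.1%) were higher, against 30.0% of all genes tested, 24 did not pass and none was lower. As all 73 fitted log2 fold changes lay above 0, none could have an unadjusted p under 0.05 in the lower direction in edgeR. DESeq2 called 53 higher and none lower. Their log2 fold changes ran from 0.0022 to 0.83, with a median of 0.44. All 73 lay above 0, and 67 to 73 did so in the other fits. In the fit without siGDF15 replicate 2, 38 passed and the median was 0.37.

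The highest of them, a pseudogene of RPL9 listed by an identifier (chr15:82372196-82372916), measured 513.5, 488.7 and 502.2 FPKM in NC and 676.0, 694.4 and 720.7 FPKM in siGDF15 (log2 fold change 0.58, SE 0.046, adjusted p = 1.5e-05). RPL9 itself, a gene of the large ribosomal subunit, was listed at only 37.2 FPKM over the 6 libraries and had a log2 fold change of 0.44. RPS28P7, chosen after its values were seen, measured 358.3, 326.7 and 349.8 FPKM in NC and 433.7, 418.1 and 492.1 FPKM in siGDF15. Its 210 bases were 100% identical to RPS28, a gene of the small ribosomal subunit, which was listed at 23.2 FPKM. The more abundant row of these pairs was thus the pseudogene.

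The search for near-identical copies covered the 264 members with a GENCODE release 29 transcript. It set that transcript against all coding transcripts at another place in the genome. A coding copy at 95% identity or more over at least 80% of the member was found for 161 members, of which 158 were pseudogenes, and they had 121 different copies between them. The median identity was 99.1%, and 82 were at 99% or more. The coding copy had the higher mean FPKM for 133 of the 161, with a median ratio of copy to member of 5.04.

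The first 90 coding bases of HMGB1 and EEF1A1 are printed beside the same stretch of their pseudogenes, in GRCh38 coordinates from GENCODE release 29. They show where the copies differ in this stretch only, and how reads were assigned to these rows was not tested. Capitals mark letters that differ from the coding gene.
HMGB1 (chr13:30463591-30463680, minus strand): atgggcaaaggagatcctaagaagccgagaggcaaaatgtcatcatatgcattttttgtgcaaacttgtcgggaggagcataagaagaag
HMGB1P5 (chr3:22381819-22381908, plus strand): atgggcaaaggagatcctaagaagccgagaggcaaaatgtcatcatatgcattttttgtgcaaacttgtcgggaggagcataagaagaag
HMGB1P6 (chr15:71165329-71165415, minus strand): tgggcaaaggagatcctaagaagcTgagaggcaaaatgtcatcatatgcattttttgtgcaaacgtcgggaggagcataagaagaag
HMGB1P10 (chr22:26560526-26560615, plus strand): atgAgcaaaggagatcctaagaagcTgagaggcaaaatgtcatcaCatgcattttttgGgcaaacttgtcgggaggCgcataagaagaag
EEF1A1 (chr6:73519937-73520026, minus strand): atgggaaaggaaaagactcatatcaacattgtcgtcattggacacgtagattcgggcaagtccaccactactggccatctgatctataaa
EEF1A1P5 (chr9:133019486-133019575, plus strand): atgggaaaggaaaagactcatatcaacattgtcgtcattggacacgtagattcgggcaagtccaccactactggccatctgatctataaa
EEF1A1P6 (chr7:22511910-22511999, minus strand): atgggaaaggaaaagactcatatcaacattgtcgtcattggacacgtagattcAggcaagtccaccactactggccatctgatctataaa
HMGB1P5 and EEF1A1P5 had 0 differing bases in this stretch and EEF1A1P6 had 1. HMGB1P6 had 1 differing base and 1 inner gap, and HMGB1P10 had 5 differing bases. The printed stretch of HMGB1P6 was 87 bases long and also lacked the first base of the HMGB1 stretch. Over whole transcripts, identity to HMGB1 was 97.9% for HMGB1P5, 98.1% for HMGB1P6 and 97.3% for HMGB1P10.

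The HMGB1 pseudogenes were lower in siGDF15 together with HMGB1, which encodes an abundant DNA-bending chromatin protein. HMGB1P5 (chr3:22381720-22382929) measured 73.7, 69.0 and 65.8 FPKM in NC and 30.3, 25.9 and 28.3 FPKM in siGDF15 (log2 fold change -1.20, SE 0.068, adjusted p = 2.7e-06). HMGB1P10 (chr22:26560526-26561088) measured 8.88, 9.17 and 7.78 FPKM in NC and 3.71, 3.01 and 3.52 FPKM in siGDF15 (-1.22, SE 0.15, adjusted p = 0.00019). HMGB1 itself measured 57.8, 55.7 and 56.5 FPKM in NC and 25.2, 22.8 and 22.5 FPKM in siGDF15 (-1.17, SE 0.054), and HMGB1P6 had a log2 fold change of -1.09 (SE 0.063). No NC library of these 4 rows overlapped a siGDF15 library.

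The EEF1A1 pseudogenes were higher with EEF1A1, the elongation factor that brings aminoacyl-tRNA to the ribosome. EEF1A1P5 (chr9:133019486-133020874) measured 395.1, 393.1 and 412.8 FPKM in NC and 562.5, 638.7 and 583.8 FPKM in siGDF15 (log2 fold change 0.68, SE 0.061, adjusted p = 3.0e-05). EEF1A1P6 and EEF1A1P13 had log2 fold changes of 0.62 (SE 0.056) and 0.57 (SE 0.10), and EEF1A1 one of 0.65 (SE 0.032).

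The ferritin pseudogenes were higher as well. FTLP3 (chr20:4023917-4024444) measured 3.99, 3.39 and 2.97 FPKM in NC and 6.54, 9.44 and 8.56 FPKM in siGDF15 (log2 fold change 1.35, SE 0.20, adjusted p = 0.00050). FTL, the ferritin light chain gene of iron storage, stood at 3098 FPKM over the 6 libraries and had the same log2 fold change of 1.35 (SE 0.057). FTH1P2 and FTH1P8 had 0.83 (SE 0.12) and 0.89 (SE 0.14) beside 0.77 (SE 0.045) for FTH1, the ferritin heavy chain gene.

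Pseudogenes of CKS1B and UHRF1 were lower. CKS1BP3 (chr5:62512246-62512482) measured 6.96, 8.22 and 9.25 FPKM in NC and 1.91, 3.66 and 2.26 FPKM in siGDF15 (log2 fold change -1.53, SE 0.27, adjusted p = 0.0014). CKS1B, a partner of cyclin-dependent kinases, had one of -1.52 (SE 0.069). A processed pseudogene of UHRF1 (chr12:20551590-20553012) measured 11.8, 9.81 and 11.1 FPKM in NC and 2.74, 3.50 and 3.51 FPKM in siGDF15 (-1.64, SE 0.13, adjusted p = 1.7e-05). UHRF1, which maintains DNA methylation at replication, had one of -1.70 (SE 0.092).

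Over all 161 pairs, member and copy had the same sign in 154. Both passed the test in 93 pairs, and in all 93 they went the same way, 72 higher and 21 lower. The median absolute difference of their log2 fold changes was 0.079, and 96 members lay within 0.1 of their copy. Across the 161 pairs Pearson's r was 0.93 and Spearman's rho 0.88. These describe genes, which are not independent replicates, and the points share libraries, near-identical sequence and, for 69 members, a copy with another member. Among the 29 copies shared by at least 2 members, all members and the copy had a common sign for 28. Of the 161 members with a near-identical copy, 72 (44.7%) were higher and 24 (14.9%) lower. Of the 113 with none found, 37 (32.7%) were higher and 29 (25.7%) lower, nearer to the 30.0% and 31.4% of all genes tested. The 113 include the members with no transcript to search. A ribosomal protein gene was the copy of 68 of the 161. Of the 73 ribosomal protein pseudogenes 49 were higher and 0 lower, while the other 109 pseudogenes had 28.4% higher and 26.6% lower. The part of the ribosomal protein pseudogenes in this difference was not tested.

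**Figure D3:**
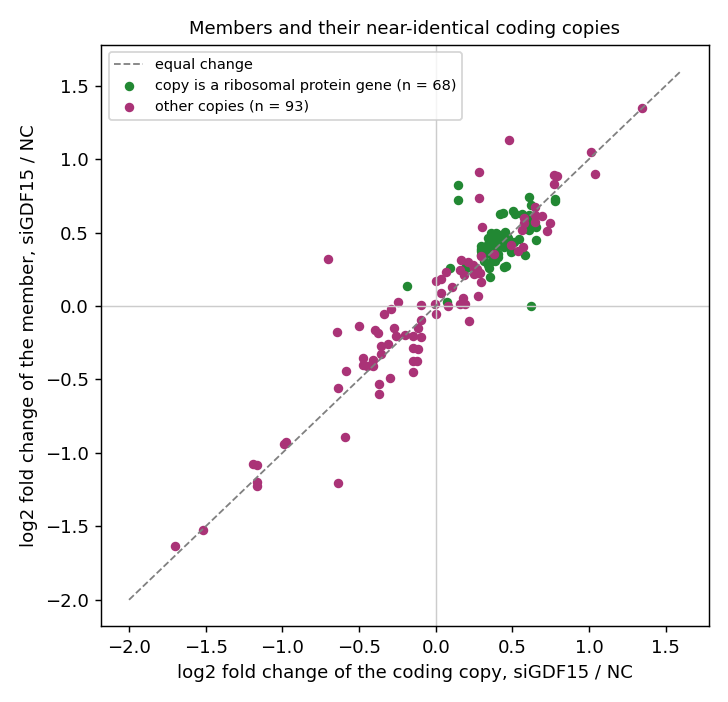
Log2 fold change (siGDF15 against NC) of 161 members, vertical axis, against that of their near-identical coding copy, horizontal axis, where green points have a ribosomal protein gene as copy (n = 68), purple points another gene (n = 93) and the dashed line marks equal change. Most points lie along the line, 96 within 0.1 of it, and 7 lie over 0.5 from it.

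Members that lay over 0.5 from their copy numbered 7, of which MXRA7P1, GTF2IP4 and SRGAP2D changed in the direction of the copy and by more. RPL13AP20 had a log2 fold change of 0.0022 (SE 0.33) beside 0.62 for RPL13A. SNRPGP10 had 0.32 (SE 0.99) beside -0.70 for SNRPG, with 1.87, 1.97 and 15.0 FPKM in NC and 1.17, 16.3 and 4.72 FPKM in siGDF15. RPS26P6 and a further RPS26 pseudogene had 0.72 (SE 0.64) and 0.83 (SE 0.64) beside 0.14 for RPS26, and both stood highest in siGDF15 replicate 2, RPS26P6 at 37.3 FPKM against 7.13 to 19.5 FPKM in the other libraries. None of these 4 members passed.

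MXRA7P1 (chr2:161340816-161341326) measured 17.8, 14.9 and 14.8 FPKM in NC and 31.2, 30.4 and 35.2 FPKM in siGDF15 (log2 fold change 1.13, SE 0.10, adjusted p = 3.4e-05). Its copy MXRA7 went from 15.9, 16.5 and 15.2 FPKM to 20.1, 21.4 and 20.2 FPKM (0.48, SE 0.052). The pseudogene stood at about the level of the coding gene in NC and above it in all 3 siGDF15 libraries. It overlaps PSMD14, a proteasome gene on the opposite strand, which had a log2 fold change of -0.26.

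GTF2IP4, a partial duplicate of the transcription factor gene GTF2I with 24 exons, measured 23.8, 23.8 and 20.2 FPKM in NC and 41.2, 38.6 and 38.7 FPKM in siGDF15 (log2 fold change 0.91, SE 0.067). GTF2IP1 had one of 0.74 (SE 0.048) and GTF2I one of 0.29 (SE 0.049). SRGAP2D (chr1:143975087-144068350), of a family duplicated in the human lineage, measured 14.3, 15.8 and 12.1 FPKM in NC and 6.22, 5.07 and 5.73 FPKM in siGDF15 (-1.20, SE 0.12, adjusted p = 6.7e-05), beside -0.64 (SE 0.12) for SRGAP2B. NUS1P2 (chr13:22915651-22916523) was less alike, at 93.9% identity to NUS1, a gene of dolichol synthesis. It measured 10.3, 11.2 and 8.46 FPKM in NC and 20.6, 21.3 and 20.3 FPKM in siGDF15 (1.16, SE 0.11, adjusted p = 3.6e-05), while NUS1 had 0.49 (SE 0.061). In these families the member changed more than the coding gene in these libraries, a difference that was not tested.

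**Figure D4:**
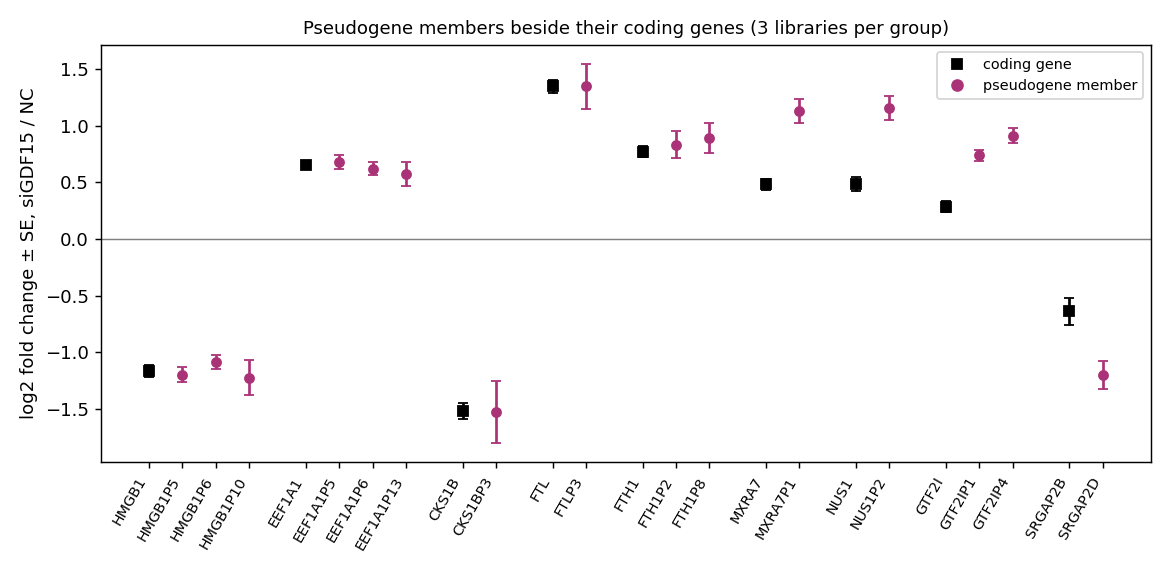
Log2 fold change with its standard error (3 libraries per group) of coding genes (black squares) and of their pseudogene members (purple circles). The HMGB1, EEF1A1, CKS1B, FTL and FTH1 families lie together, from -1.53 for CKS1BP3 to 1.35 for FTLP3, while MXRA7P1 (1.13), NUS1P2 (1.16), GTF2IP1 (0.74), GTF2IP4 (0.91) and SRGAP2D (-1.20) lie farther from 0 than their coding genes.

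The most abundant member was MTATP6P1 (chr1:633696-634376), a nuclear copy of the mitochondrial gene for ATP synthase subunit 6. It measured 942.1, 983.5 and 949.4 FPKM in NC and 1055, 1087 and 1040 FPKM in siGDF15 (log2 fold change 0.25, SE 0.043, adjusted p = 0.0011). MT-ATP6, at 98.5% identity, stood at 6089 FPKM and had a log2 fold change of 0.27 (adjusted p = 0.0015). All 5 nuclear pseudogenes of mitochondrial genes had a log2 fold change above 0 and 4 passed, beside the larger share of mitochondrially encoded counts in siGDF15 given above. The part of that share in these values was not tested.

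Rows annotated only as nonsense-mediated decay, retained intron or processed transcript, several of them read-through rows, numbered 20. Of these 5 (25%) were higher and 8 (40%) lower, against 30.0% and 31.4% of all genes tested. SENP3-EIF4A1 (chr17:7563287-7578715), which joins a SUMO protease gene to the gene of the translation helicase eIF4A1, measured 213.6, 10.4 and 51.7 FPKM in NC and 158.2, 35.3 and 17.1 FPKM in siGDF15. In the same libraries EIF4A1 measured 55.0, 170.1 and 181.5 FPKM and 77.1, 154.3 and 168.2 FPKM. The 2 libraries with the highest read-through values had the lowest EIF4A1 values, and the log2 fold change of SENP3-EIF4A1, -0.29 (SE 1.03, adjusted p = 0.82), turned to 1.27 without NC replicate 1.

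HNRNPUL2-BSCL2, chosen after its values were seen, measured 7.97, 5.35 and 9.23 FPKM in NC and was listed at 0 in siGDF15 replicate 1, beside 6.24 and 6.30 FPKM in the other libraries of that group. CHKB-CPT1B measured 7.89, 13.5 and 8.89 FPKM in NC and 5.61, 2.23 and 4.48 FPKM in siGDF15 (log2 fold change -1.19, SE 0.31, adjusted p = 0.010). ENSG00000255508 (chr11:62559603-62591531) measured 26.4, 42.3 and 33.7 FPKM in NC and 7.47, 18.97 and 6.33 FPKM in siGDF15 (-1.54, SE 0.39, adjusted p = 0.0090). EEF1G, an elongation factor gene that it overlaps on the same strand, had 0.72 (SE 0.054), the opposite sign. ENSG00000284946 (chr15:90966190-91022566) measured 10.3, 8.68 and 8.93 FPKM in NC and 3.43, 3.48 and 4.46 FPKM in siGDF15 (-1.19, SE 0.11, adjusted p = 4.0e-05), while 2 genes that it overlaps on the same strand had opposite signs, the cytokinesis gene PRC1 at -1.86 (SE 0.14) and the vesicle-sorting gene VPS33B at 1.01 (SE 0.27, adjusted p = 0.011). The row with the widest log2 fold change of all members, 2.94 (adjusted p = 0.044), rested on siGDF15 replicate 3 at 29.2 FPKM, while its other 5 libraries ran from 0.55 to 3.03 FPKM. Within a group, 21 members spread over more than 2-fold, of which 8 were rows of these types, and the median member's largest spread was 1.25-fold.

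**Figure D5:**
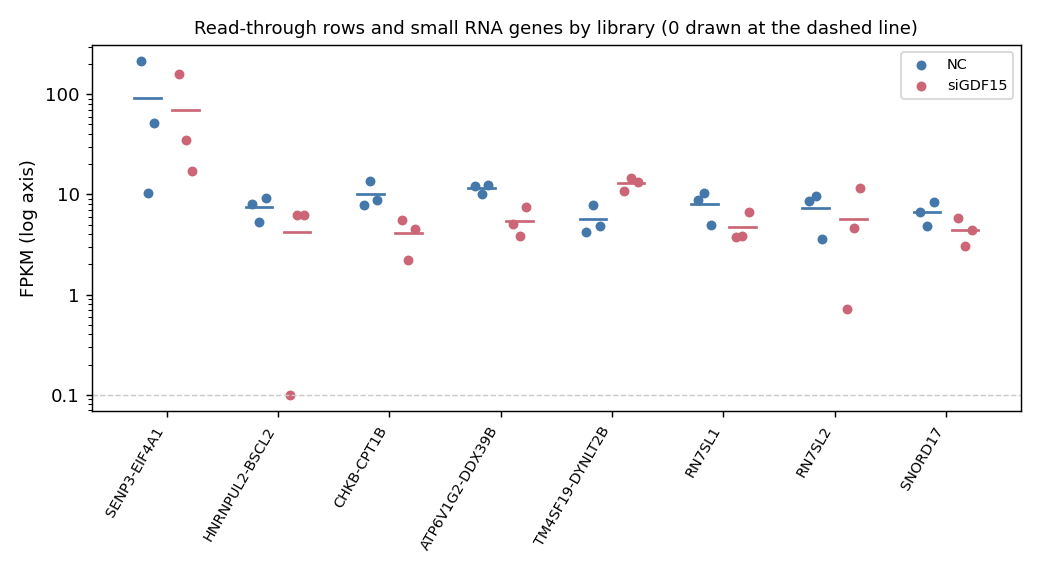
FPKM on a log axis of 5 read-through rows and 3 small RNA genes, where each point is a library, each bar the mean of 3 libraries and a value of 0 is drawn at the dashed line. SENP3-EIF4A1 spreads from 10.4 to 213.6 FPKM within NC, HNRNPUL2-BSCL2 has a siGDF15 library at 0, and RN7SL2 spreads from 0.72 to 11.5 FPKM within siGDF15.

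The small RNA genes were uneven in these poly(A) libraries, and none of the 3 passed in edgeR, DESeq2 or at an unadjusted p under 0.05. RN7SL1, a gene of the signal recognition particle RNA that guides secreted proteins to the endoplasmic reticulum, measured 8.88, 10.2 and 4.97 FPKM in NC and 3.75, 3.84 and 6.62 FPKM in siGDF15 (log2 fold change -0.64, SE 0.32, adjusted p = 0.11). It passed without NC replicate 3 (-0.89, adjusted p = 0.017) and without siGDF15 replicate 3 (-0.96, adjusted p = 0.041). RN7SL2 measured 8.55, 9.59 and 3.57 FPKM in NC and 0.72, 4.66 and 11.5 FPKM in siGDF15. SNORD17, a snoRNA gene inside SNX5, had a log2 fold change of -0.47 (SE 0.29, adjusted p = 0.19). Of the 6 protein genes of the signal recognition particle, SRP14 was higher at 0.44 (adjusted p = 3.2e-05) and SRP9 lower at -0.37 (adjusted p = 7.4e-05).

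Lastly, 4 lncRNA rows in the ribosomal RNA repeats of chromosome 21 differed between libraries together. Their annotated transcripts all had 923 bases and 54.8% G and C, and their log2 fold changes ran from 0.55 to 0.57. Whether they share reads was not tested, so they may not be 4 separate measures. The most abundant (chr21:8437629-8438551) measured 100.5, 89.9 and 68.8 FPKM in NC and 89.7, 97.4 and 170.7 FPKM in siGDF15. siGDF15 replicate 3 stood apart in each of the 4 rows. None passed in edgeR or DESeq2, while all 4 had an unadjusted p under 0.05. Their median log2 fold change was 0.57, and 0.23 without siGDF15 replicate 3. All 4 passed without siGDF15 replicate 1, with a median of 0.74, and with libraries set to the same median, with one of 0.63.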

How the data were processed

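Poly(A) RNA of 3 NC and 3 siGDF15 libraries was sequenced as read pairs. Per the labels the authors used fastp, HISAT2, StringTie and edgeR with GRCh38; versions and the strand setting are not given in the sources used here. The deposited FPKM values are scaled by the authors to transcript length and mapped fragments. The expected counts, as deposited, have no decimals and track transcript coverage, with 1 read pair worth about 4 of them, a value read from their low end. A rounding step to whole numbers was applied to them before the tests. Total counts per library ran from 51738814 to 68025163.

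The 11867 genes at or above a 6-library mean of 1 FPKM were fitted once with edgeR 4.0.16 (R 4.3.3): TMM normalization, the quasi-likelihood test, two-sided, Benjamini-Hochberg adjustment over all tested genes. Members were read from that fit. SE is the log2 fold change divided by the square root of F. Errors of FPKM means are SD with n = 3. The script was tested on simulated data. Coding copies were sought with blastn 2.17.0 in GENCODE release 29, and sequences were aligned with Biopython 1.88. Alternatives used DESeq2 1.42.0, limma 3.58.1 on log2 of FPKM plus 1 or 0.1, other scalings and filters, a replicate block, and each library left out.

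The members and lists were chosen with earlier results of these data known. Named genes were all members in the role lists, the 3 most abundant of each class, the 10 members with the largest change each way among those called and not overlapping, their coding neighbours and parents, the 5 partner proteins with the smallest adjusted p each way, and at most 2 identifiers each way. Genes named outside that rule (RPS28P7, HMGB1P6, EEF1A1P6, EEF1A1P13, FTH1P2, FTH1P8, GTF2IP1, GTF2IP4, CHKB-CPT1B, HNRNPUL2-BSCL2, PTOV1-AS2, ANKRD10-IT1, THAP9-AS1, HSD17B1-AS1, MRPL20-AS1, RPL13AP20, SNRPGP10, RPS26P6, listed genes below 5 FPKM and further partner genes) were chosen after their values were seen. TSHR was not analysed here, some named genes are not reported here, and a promoter sequence of NEAT1 was not used here. The deposited fold changes and p-values of the authors' own comparison were not used.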

Additional observations from a re-analysis of the deposited data

How the results depend on the processing

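Across the 16 other fits, the number of members higher in siGDF15 ran from 83 to 123 and the number lower from 40 to 64, each within 1.5 times the values of 109 and 53. The fit without a filter gave 83 higher and 48 lower. Higher members were 67.3% of those called, and 60.7 to 72.4% in the other fits. With the total count in place of TMM the median of all genes tested moved from 0.0026 to -0.099, and that of the members from 0.26 to 0.16. The members' median was also 0.32 with libraries set to the same median, 0.23 with a filter at a mean FPKM of 0.1, 0.21 with no filter, 0.15 with limma on log2(FPKM + 1) and 0.16 with limma on log2(FPKM + 0.1), and it ran from 0.23 to 0.28 when each library was left out. Partner genes that were higher numbered 9, and 5 with the total count, with the filter at 0.1, with no filter and with both limma fits. They ran from 5 (without siGDF15 replicate 3) to 8 when each library was left out, and lower partners from 28 to 31. Of the 41 named genes that passed, 39 passed in the same direction in every fit. MALAT1 lost its call in 9 fits and MIR1244-2 in 12.

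Log2 fold changes that had not passed and turned in direction were those of MIF-AS1, RN7SL2 and SENP3-EIF4A1. MIF-AS1 had -0.050 with the total count, -0.0021 with no filter, and -0.050 and -0.051 with limma. When each library was left out, MIF-AS1 ran from -0.011 to 0.090, RN7SL2 from -1.33 to 0.28 (5.1e-06 without NC replicate 2) and SENP3-EIF4A1 from -1.70 to 1.27 (0.026 and 0.17 without the second and the third siGDF15 library). The cause was not tested.

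Replicate numbers did not pair the libraries: deviations of same-numbered libraries correlated at 0.028, -0.075 and 0.046. With a replicate block, 100 members were higher and 50 lower, the median was 0.26, 7 partner genes were higher and 30 lower, and GDF15 had a log2 fold change of -0.91 (adjusted p = 0.00013).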
